A study of Mus musculus with 6 samples.

Results

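The cytosolic ribosomal proteins were examined in monocytes and macrophages of mouse bone marrow, with and without a graft of human leukaemic B cells. Members were all probes whose platform symbol began with Rpl or Rps followed by a digit, together with Rpsa and Rplp0 to Rplp2, leaving out the Rps6k kinases and pseudogene symbols. This gave 96 probes for 65 symbols out of 45281 probes on the array. The symbols covered 38 genes of the large subunit and 25 of the small subunit, with close paralogues counted in each. The other 2 symbols, Rps19bp1 and Rps23rg1, were taken in by the rule but are a partner of Rps19 and a retroposed copy of Rps23. Of 89 protein-coding RefSeq symbols that meet the same rule, 64 had a named probe.

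The comparison was between 2 groups of 3 mice. The MEC1 mice (D, E and F) had been injected intravenously with MEC1, an established line of human chronic lymphocytic leukaemia B cells, and the control mice (A, B and C) had received no treatment. All 6 animals were BALB/c Rag2-/-γc-/- mice of 11 weeks, hosts that lack T, B and NK cells and so accept human grafts, and samples were taken at day 21. Cells were enriched from marrow by magnetic separation, and RNA of each mouse was hybridised to 1 bead array. In such bulk RNA, fewer cells of a type and less RNA per cell cannot be told apart. Values of single mice are given in the order D, E, F for MEC1 and A, B, C for control. Nothing in the labels tells whether the mice of a group shared a cage or litter, so p-values measure the spread between these samples.

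A ribosome is built from ribosomal RNA and a fixed set of proteins, which form a small subunit that reads the messenger RNA and a large subunit that joins the amino acids. The genes are transcribed strongly in nearly every cell, and cells keep the proteins in balance because unused copies are degraded. Their messenger RNAs begin with a terminal oligopyrimidine tract, a C followed by further pyrimidines, through which growth signals control their translation. Shortage of a ribosomal protein is best known in the marrow, where in humans it causes the red cell failure of Diamond-Blackfan anaemia.

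The start sites of these genes are shown because the oligopyrimidine tract is a sequence feature the family is known for. RefSeq (GRCm38.p6) gave start sites for 52 of the 63 ribosomal protein genes, 62 sites in all. A C within 10 bases of the annotated start that was followed by at least 5 further pyrimidines, on the strand of the gene, was present at 30 of these sites, or 48.4%, and at 19.2% of all 32851 sites. The letters CCGGAA, searched on both strands over 250 bases before to 50 after the start, were found at 30 sites, or 48.4%, and at 14.9% of all. A match is a description of the letters near an annotated start, and annotated starts can lie some bases from the true one. Below, 10 bases before the start and 20 from it are printed, with the pyrimidine run in capitals, for 4 genes with a run, for Rpl22l1, and for the 2 annotated starts of Rpl22, which lack one.
Rps6 (chr4:86857348-86857377, minus strand): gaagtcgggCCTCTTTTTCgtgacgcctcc
Rplp2 (chr7:141447641-141447670, plus strand): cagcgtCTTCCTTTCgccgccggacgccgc
Rps10 (chr17:27635225-27635254, minus strand): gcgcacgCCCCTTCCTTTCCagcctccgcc
Rpl35 (chr2:39005112-39005141, minus strand): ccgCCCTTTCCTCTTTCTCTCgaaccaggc
Rpl22l1 (chr3:28805498-28805527, plus strand): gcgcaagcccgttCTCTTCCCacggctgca
Rpl22, upstream start (chr4:152324426-152324455, plus strand): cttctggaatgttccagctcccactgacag
Rpl22, downstream start (chr4:152325716-152325745, plus strand): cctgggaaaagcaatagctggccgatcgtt
The values of these genes are given below with their subunit or pair, except Rpl35 (log2 change, MEC1 minus control, -0.04), which was picked for its long run.

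No ribosomal protein probe passed the test between the groups. Of the 78 member probes detected on at least 3 arrays, 0 were called higher and 0 lower in MEC1 mice by limma at an adjusted p under 0.05. Of all 16460 tested probes, 0.869% were called higher and 0.668% lower, 1.54% in all. At an unadjusted p under 0.05 there were 7 member probes, 4 higher and 3 lower, or 8.97% against 19.8% of all tested probes (10.2% higher and 9.67% lower). The groups did not overlap at 15 member probes, 10 higher and 5 lower, or 19.2% against 27.7% of all tested probes (14.4% higher and 13.3% lower). The smallest adjusted p of any member probe was 0.0962, at the dimmer probe of Rps19. That probe, also counted among the higher ones above, met the detection filter only through the MEC1 mice. The median log2 change, MEC1 minus control, was -0.037 over the member probes and -0.022 over all tested probes, with 34 member probes above 0 and 44 below.

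With 1 probe per gene, the brightest tested one, there were 58 genes. Of these, 0 passed in limma in either direction, where the calls were 0.946% (higher) and 0.792% (lower) of all 9089 tested genes. An unadjusted p under 0.05 was found in 6 (10.3%, beside 21.0% of all tested genes). The 35 large-subunit genes had a median log2 change of -0.002 and lay between -0.54 and 0.46, with 17 above 0 and 18 below. The 22 small-subunit genes had a median of -0.054, with 7 above 0 and 15 below. Those detected in both groups lay between -0.39 and 0.55, and Rpsa, not detected in MEC1 mice, is described below. The groups did not overlap in 8 genes that were higher and 4 that were lower in MEC1 mice, against 15.0% and 14.0% of all tested genes. That is 20.7% of the member genes in all, beside 29.0% of all tested genes.

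**Figure D1:**
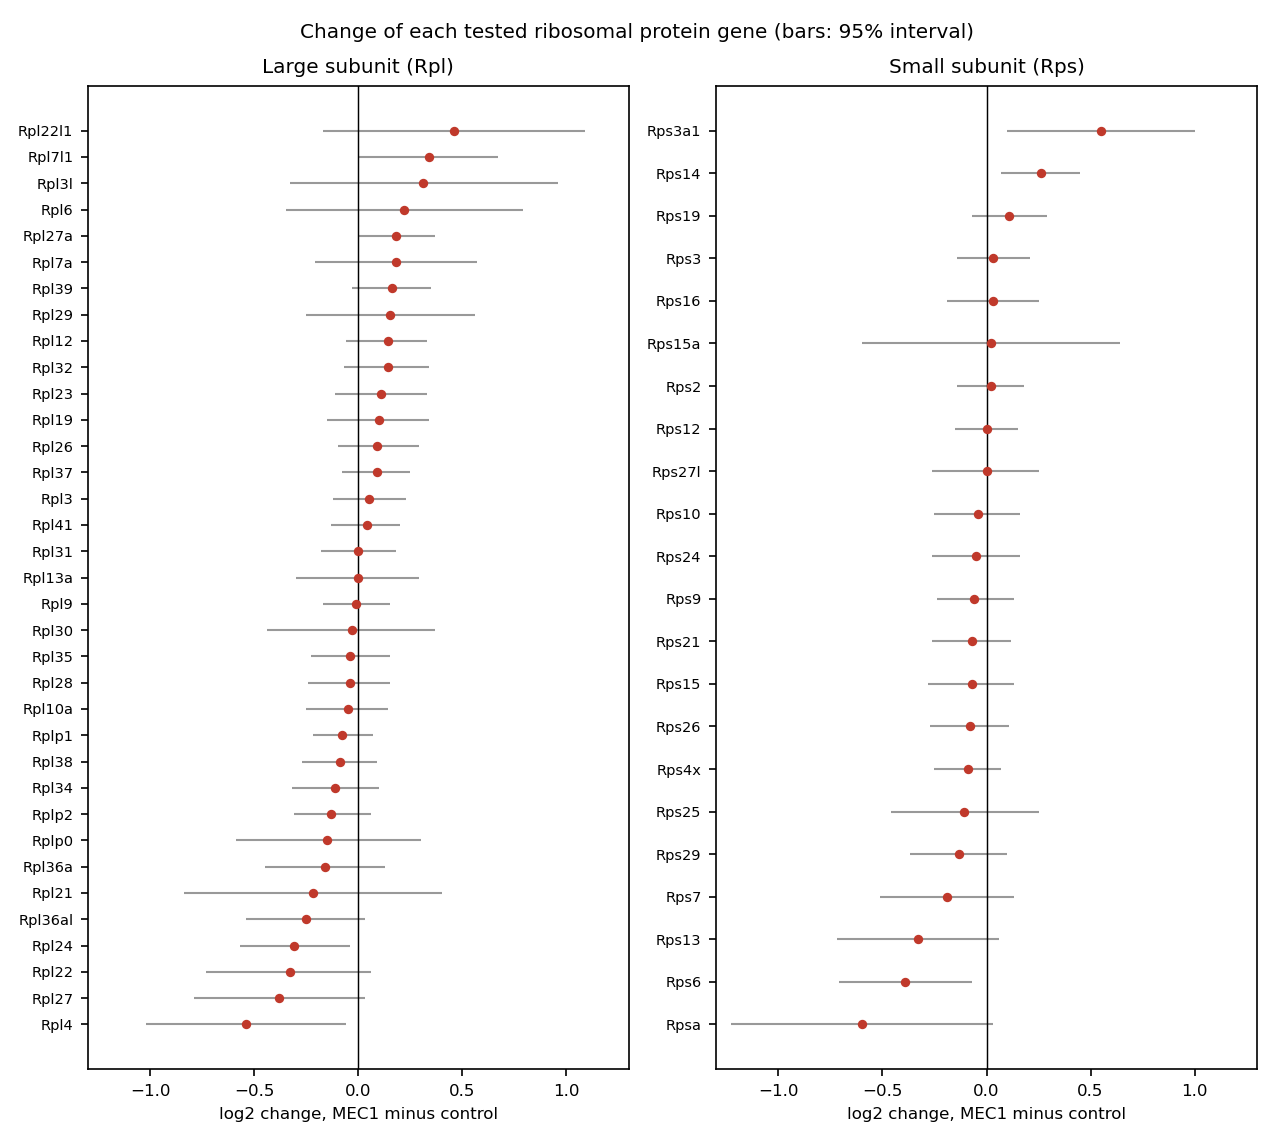
Log2 change of each tested gene, MEC1 minus control (x axis), for the large subunit at left and the small subunit at right; points are limma estimates from 3 mice per group and bars are 95% intervals. Most points lie close to 0, and Rps3a1 stands at 0.55; the point of Rpsa is measured against MEC1 arrays on which its probe was not detected.

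Under quantile normalization the intervals were narrow, and they leave out the choice of scaling. The 95% interval of the change lay within 1.5-fold either way for 43 of 58 member genes, or 74.1%, and for 21.3% of all tested genes. It lay within 2-fold for 54 member genes. The size of the log2 change was under 0.1 in 27 member genes, or 46.6%, and in 19.3% of all tested genes. Rplp1, a protein of the ribosomal stalk, gave the interval from 0.858-fold to 1.05-fold, and Rps12 a log2 change of 0.00 with an interval from -0.15 to 0.15. With arrays scaled to the median of tested probes these genes lay outside those intervals, at 0.53 for Rplp1 and 0.64 for Rps12 (adjusted p = 0.0534 and 0.0456). The standard error of the log2 change had a median of 0.095 over the member genes and 0.241 over all tested genes.

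The members were also bright: 46 of the 78 probes had a mean log2 intensity above 13. Of these 46 probes the interval lay within 1.5-fold for 93.5%, against 75.8% of the other 475 tested probes above 13. The median size of the log2 change was 0.092 in those member probes and 0.137 in the other bright probes. Of the other bright probes 15, or 3.16%, were called. The highest value on any array was 15.47, so the brightest member, with a mean of 15.35, lay near the top of the normalized scale.

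**Figure D2:**
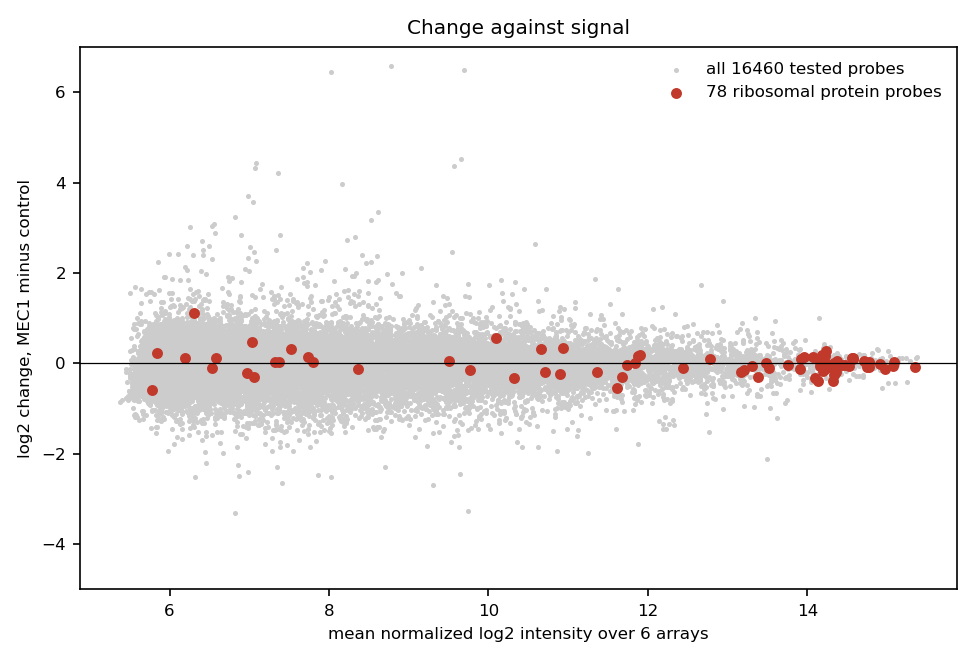
Log2 change, MEC1 minus control (y axis), against the mean normalized log2 intensity over the 6 arrays (x axis); grey points are all 16460 tested probes and red points the 78 ribosomal protein probes. The red points narrow around 0 as intensity increases, and the one at 1.12 is the dimmer probe of Rps19.

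The level given to the whole family depended on how the arrays were scaled. The MEC1 arrays were dimmer before normalization, and the median raw intensity of the 58 member genes was 17090, 9239 and 15410 in the MEC1 mice, against 22170, 22010 and 19710 in the control mice. After background correction and before any scaling, the member probes took 4.95%, 5.58% and 5.13% of all signal on the arrays of mice D, E and F. They took 4.46%, 4.37% and 4.43% on those of control mice A, B and C, so every MEC1 array had a larger share. A share of array signal is not a share of messenger RNA, because probes differ in brightness.

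When arrays were scaled to a common median of the tested probes in place of quantile normalization, the member median was 0.322 and that of all tested probes 0.076. Scaled to the median of all probes, the member median was -0.237 and that of all tested probes -0.483. Other bright probes shifted with the scaling too. The 46 member probes above 13 had a median change of 0.504 with the median of tested probes as the scale, -0.055 with that of all probes and -0.047 under quantile normalization, and the 475 other bright probes 0.407, -0.151 and 0.004. Under the median of tested probes 6 member probes passed, all higher (7.69%, where 1.60% of all tested probes were called higher). These were both probes of Rps12 and 1 each of Rpl27a, Rpl10a, Rpl39 and Rps14. Under the median of all probes 1 member probe passed, that of Rpl4, which was lower (log2 change -1.02, adjusted p = 0.035 in limma), where 12.0% of all tested probes were called lower.

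**Figure D3:**
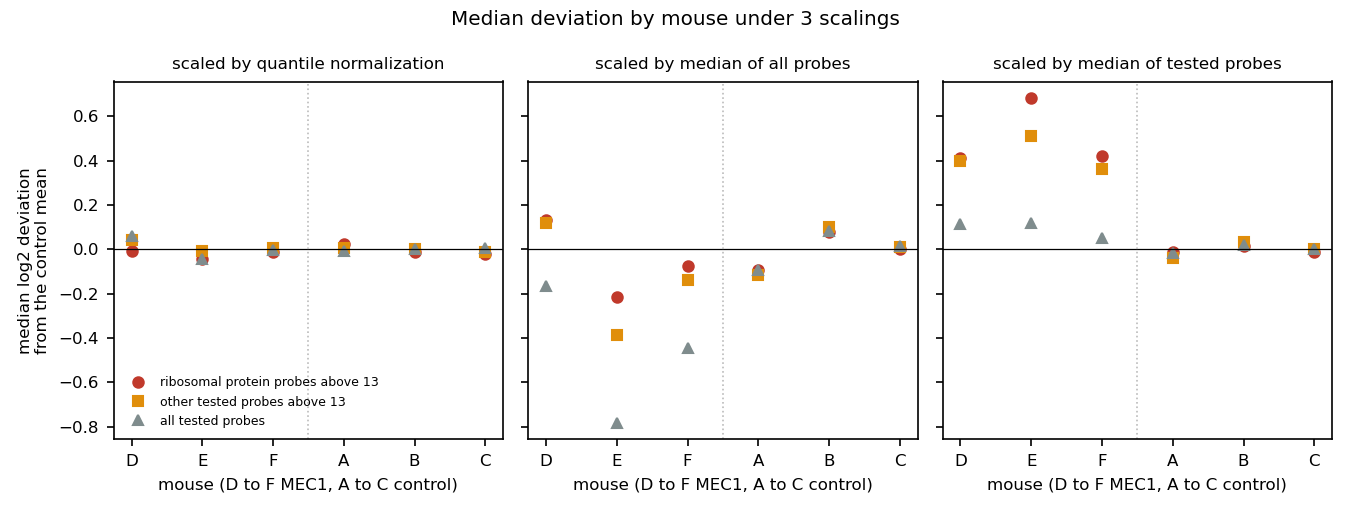
Median log2 deviation from the control mean (y axis) in each mouse (x axis, MEC1 mice D to F left of control mice A to C) for the 46 ribosomal protein probes above a log2 intensity of 13, the 475 other tested probes above 13 and all tested probes, under quantile normalization and under 2 median scalings. In the right panel the MEC1 mice have ribosomal protein medians of 0.411, 0.683 and 0.421, and the other bright probes 0.396, 0.510 and 0.360.

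Members were next described by subunit. In the small subunit, Rps6, the protein that S6 kinases phosphorylate when nutrients are plentiful, had a log2 intensity of 14.06, 13.60 and 14.15 in the MEC1 mice, against 14.35, 14.23 and 14.40 in the control mice. The groups did not overlap, and mouse E was the lowest. The change was -0.39 ± 0.14 (SE, n = 3 per group; limma adjusted p = 0.182), and 0.03 with arrays scaled to the median of tested probes. Rps13 gave 14.25, 13.51 and 14.03 in MEC1 mice and 14.26, 14.19 and 14.33 in control mice, where mouse D lay within the control values and mouse E well below them. Its change was -0.33 ± 0.17 (adjusted p = 0.318).

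Rpsa, which serves in the small subunit and is also known as the laminin receptor, was measured near background. Its tested probe was not detected on any of the MEC1 arrays but was on each of the control arrays, with mean log2 intensities of 5.48 in MEC1 mice and 6.08 in control mice. The probe met the detection filter only through the control mice. Under quantile normalization its log2 change was -0.6 (limma adjusted p = 0.271), with an interval from -1.23 to 0.03, which includes no change. A bound taken from the group means alone was 1.21-fold lower in MEC1 mice. Because of the way the probe met the filter, neither its p-value nor this bound can stand as support for a fall. The change was -0.26 with arrays scaled to the median of tested probes, where that bound was not computed. The bound sets the control mean against the MEC1 mean with each array's value raised to its lowest detected probe. It leaves out the spread between mice.

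The higher values of the small subunit were those of Rps3a1 and Rps14. Rps3a1 gave 10.28, 10.34 and 10.48 in the MEC1 mice and 9.68, 10.21 and 9.56 in the control mice. The 3 MEC1 mice lay close together and just above control mouse B. The change was 0.55 ± 0.20 (SE; adjusted p = 0.184), and 0.02 with arrays scaled to the median of all probes. Rps14, whose deletion is known from a human myelodysplastic syndrome with anaemia, gave 14.27, 14.47 and 14.36 in MEC1 mice and 14.12, 14.10 and 14.09 in control mice. Its groups were separated by more than the range of the control mice. The change was 0.26 ± 0.08 (SE), the smallest p among the 58 genes (adjusted p = 0.148).

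The probes of Rps19, the gene most often mutated in Diamond-Blackfan anaemia, differed most among genes with several tested probes. At the brighter probe it gave 14.63, 14.70 and 14.54 in the MEC1 mice, against 14.57, 14.49 and 14.48 in the control mice, a change of 0.11 ± 0.08 (adjusted p = 0.45). At the dimmer probe it gave 6.80, 6.82 and 6.97 in MEC1 mice and 5.72, 5.35 and 6.17 in control mice. That probe was detected on all 3 MEC1 arrays and on 1 of 3 control arrays. It met the detection filter only through the MEC1 mice, so its p-values cannot stand as support for a rise. Its change of 1.12 ± 0.28 (SE; adjusted p = 0.0962) was measured partly against undetected signal. Without MEC1 mouse D it passed (1.15 ± 0.29, adjusted p = 0.0401), in a fit that called 4.24% of all tested probes higher. The other genes of the Diamond-Blackfan list with a tested probe were Rps7, Rps10, Rps24 and Rps26, where the changes were -0.19, -0.04, -0.05 and -0.08. At the brightest probe of each of these 5 genes 0 passed in limma and 0 had an unadjusted p under 0.05, beside 1.74% and 21.0% of all tested genes, while the dimmer probe of Rps19 had an unadjusted p of 0.00327.

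**Figure D4:**
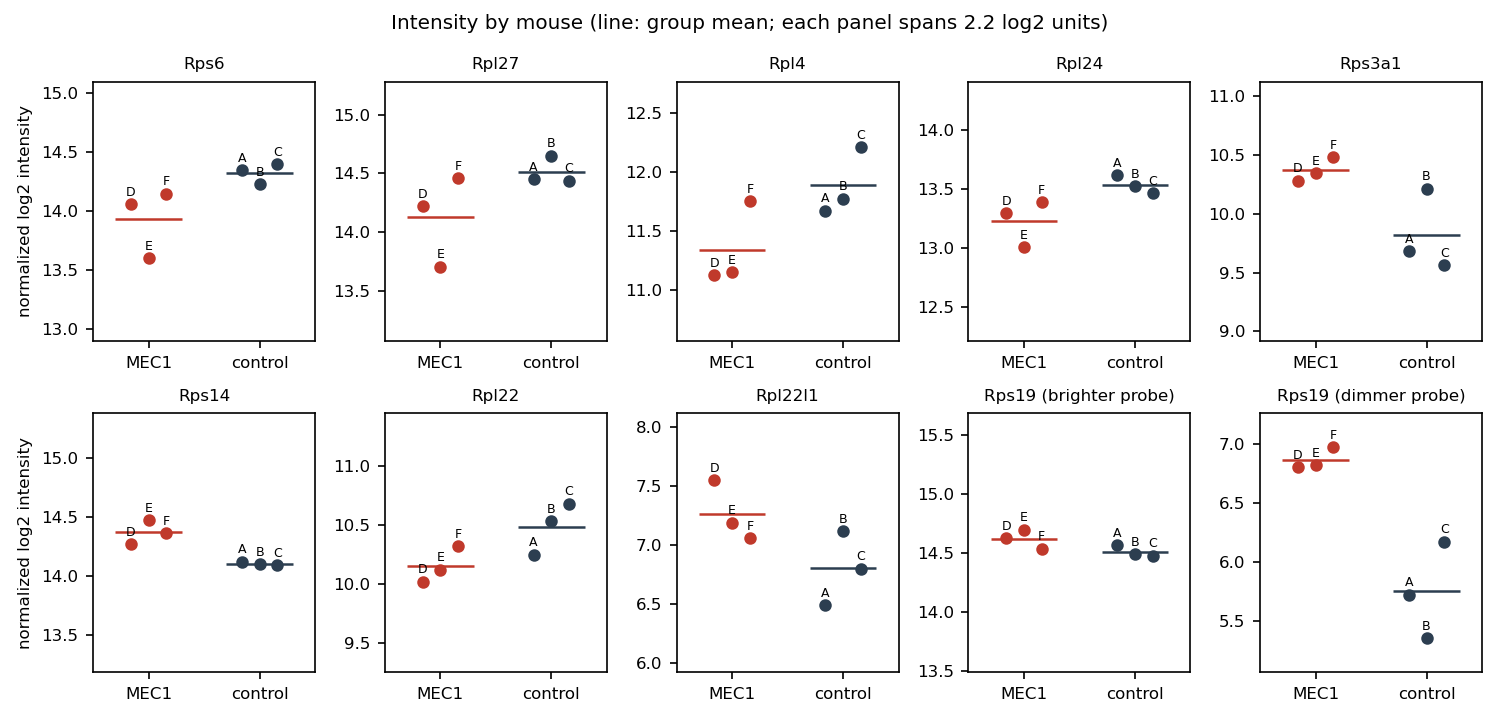
Normalized log2 intensity (y axis) of 9 genes in each mouse, MEC1 left of control, with the group mean as a line; Rps19 is drawn at its brighter and its dimmer probe, and each panel spans the same range of log2 units. Mouse E lies lowest in Rps6, Rpl27 and Rpl24, and the groups are apart in Rps14 and at the dimmer probe of Rps19. That probe was detected on 1 control array.

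In the large subunit, the lowest change was that of Rpl4, a protein that lines the tunnel through which the new chain leaves. It gave 11.12, 11.15 and 11.75 in the MEC1 mice, against 11.67, 11.77 and 12.21 in the control mice. Mouse F lay between control mice A and B, so the groups overlapped. The change was -0.54 ± 0.21 (SE; adjusted p = 0.209). Rpl27 gave 14.22, 13.71 and 14.46 in MEC1 mice and 14.45, 14.65 and 14.44 in control mice, a change of -0.38 ± 0.18 (adjusted p = 0.275). Rpl24, which forms a bridge to the small subunit, gave 13.30, 13.01 and 13.39 in MEC1 mice and 13.62, 13.53 and 13.47 in control mice. Its groups did not overlap, and its change was -0.31 ± 0.12 (adjusted p = 0.208). The changes of Rpl27 and Rpl24 came to 0.08 and 0.00 with arrays scaled to the median of tested probes.

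Mouse E was the lowest of the 6 mice at 28 of the 78 member probes, or 35.9%, beside 27.7% of all tested probes, and the highest at 10, or 12.8%, beside 20.6%. Rpl27, Rps6, Rps13, Rpl24, Rpl36al and Rps7 were among the low ones. Without mouse E their changes were -0.17, -0.22, -0.12, -0.19, -0.12 and -0.02, and none passed with or without it. Since mouse E was the lowest in each of these genes, leaving it out could only raise their changes. Mouse E also had the least summed erythroid signal. Over 12 tested genes of a red cell list, the log2 of summed intensity was 16.07, 15.26 and 16.24 in the MEC1 mice. It was 16.40, 16.67 and 16.82 in the control mice. Hba-a1, the brightest of these genes, weighs most in that sum. Its means were 15.04 in MEC1 mice and 15.47, the top of the normalized scale, in control mice. Mouse D was the lowest at Car2 and Rhag, and mouse F at Gata1. All 12 had values below 0 (median change -1.04). In limma 0 passed (smallest adjusted p = 0.165) and 6 of 12 had an unadjusted p under 0.05, beside 1.74% and 21.0% of all tested genes. Of the 14 named genes of that list, Epb42 and Rhd were detected on no array. The part of erythroid cells in the values of the ribosomal proteins was not tested.

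The stalk of the large subunit, which recruits the elongation factors, is made of Rplp0, Rplp1 and Rplp2. Rplp1 gave 15.33, 15.24 and 15.37 in the MEC1 mice, against 15.40, 15.40 and 15.37 in the control mice. Rplp2 gave 14.16, 14.11 and 14.19 in MEC1 mice and 14.28, 14.20 and 14.36 in control mice, where the groups did not overlap but lay within a narrow range. The changes were -0.15 ± 0.20 for Rplp0, -0.08 ± 0.06 for Rplp1 and -0.13 ± 0.08 for Rplp2 (SE; adjusted p = 0.702, 0.527 and 0.403). With arrays scaled to the median of tested probes, Rplp1 and Rplp2 gave 0.53 and 0.33 and Rplp0 -0.13, and with the median of all probes Rplp0 gave -0.69. Of these 3 genes 0 passed in limma and 0 had an unadjusted p under 0.05, beside 1.74% and 21.0% of all tested genes.

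Several members serve as reference genes in quantitative PCR. Rpl13a had a log2 intensity of 11.83 ± 0.15 in MEC1 mice and 11.83 ± 0.06 in control mice (SD, n = 3 each), and the 95% interval of its change ran from -0.30 to 0.29. Rpl19 had 12.83 ± 0.12 and 12.73 ± 0.04, and Rpl32 had 14.03 ± 0.12 and 13.89 ± 0.03, in MEC1 and control mice in each case. The intervals were -0.15 to 0.34 for Rpl19 and -0.07 to 0.34 for Rpl32, and -0.59 to 0.30 for Rplp0. With arrays scaled to the median of all probes the changes of Rplp0, Rpl13a, Rpl19 and Rpl32 came to -0.69, -0.45, -0.22 and 0.00, and with the median of tested probes to -0.13, 0.11, 0.34 and 0.56. Rps18, another common reference, had no named probe here.

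Paralogues, copies that can take the place of a ribosomal protein, had both members tested in 3 of 8 listed pairs. Rpl22 and its copy Rpl22l1 are the pair with known cross-control, since in mice Rpl22 holds down the messenger RNA of Rpl22l1. Rpl22 gave 10.02, 10.12 and 10.32 in the MEC1 mice, against 10.25, 10.53 and 10.68 in the control mice, a change of -0.33 ± 0.18 (SE; adjusted p = 0.321). Rpl22l1 gave 7.55, 7.19 and 7.06 in MEC1 mice and 6.49, 7.12 and 6.80 in control mice, a change of 0.46 ± 0.28 (SE; adjusted p = 0.384). Each gene's groups overlapped, and with arrays scaled to the median of all probes the changes came to -0.87 for Rpl22 and -0.08 for Rpl22l1.

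Within each array, the log2 difference Rpl22l1 minus Rpl22 was higher by 0.79, or 1.73-fold, in MEC1 mice. It was -2.47, -2.92 and -3.26 in the MEC1 mice and -3.75, -3.40 and -3.88 in the control mice, so that every MEC1 mouse lay above every control mouse. The sign of these values reflects the brightness of 2 probes and not which gene is more abundant. The exact two-sided permutation test gave p = 0.1, the smallest that 3 mice against 3 allow, and 0.3 after Benjamini-Hochberg adjustment over the 3 pairs. The difference between the groups was 0.79 under both median scalings, 0.61 in the authors' processed values and 0.60 without background correction. Each median scaling shifts all probes of an array by the same amount, so a pair has the same value under both by construction.

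In the other pairs the groups overlapped. The difference of log2 change between Rpl36al and Rpl36a was -0.10 (exact permutation p = 0.7) and 0.11 under both median scalings, and that between Rpl3l, in mice a form of heart and skeletal muscle, and Rpl3 was 0.26 (exact permutation p = 0.4) and -0.30 under both median scalings. Adjusted over the 3 pairs, these p-values were 0.7 and 0.6. Leaving out 1 mouse moved the difference of Rpl36al and Rpl36a to -0.33 without D and 0.06 without E, and that of Rpl3l and Rpl3 to 0.09 without D and 0.49 without F. Rps27l gave 13.48 ± 0.18 in MEC1 mice and 13.49 ± 0.10 in control mice (SD, n = 3 each). Rpl7l1, a relative of Rpl7, gave 10.98, 11.19 and 11.13 in the MEC1 mice, against 10.67, 10.69 and 10.92 in the control mice. Its groups did not overlap, at a change of 0.34 ± 0.15 (SE; adjusted p = 0.248), and it gave -0.16 with arrays scaled to the median of all probes. Rpl7a, another protein of the large subunit, had a change of 0.18 ± 0.17 (adjusted p = 0.585), and -0.27 under that scaling. Rpl6 had 0.22 ± 0.25 (adjusted p = 0.657), and -0.08 under that scaling, at a probe detected on 2 MEC1 arrays and 1 control array. Rpl39l was detected on no array and Rps4l on 1 control array.

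Several genes were read by more than 1 probe. Of 15 genes with at least 2 tested probes, the probes differed in sign in 11, some of them by values close to 0, and they differed by over 0.5 in 1, Rps19. The next widest ranges of log2 change were those of Rpl27a, from -0.23 to 0.18, Rpl38, from -0.09 to 0.32, Rps24, from -0.30 to 0.05, and Rps13, from -0.33 to 0.02. Rpl27a was higher in every MEC1 mouse than in any control mouse at its brightest probe (14.25, 14.33 and 14.24 against 14.17, 14.01 and 14.09), and its other tested probes had changes of -0.12 and -0.23.

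Of the 18 member probes not tested, 16 were detected on no array. In 5 genes an undetected probe stood beside a probe with a mean above 13. The 7 symbols without a tested probe were Rpl14, Rpl17, Rpl39l, Rps20, Rps23, Rps23rg1 and Rps4l, so nothing is said of their level. Rpl14 was detected on 1 MEC1 array, that of mouse E. Near-identical copies and retroposed copies are common in this family, and probes were named by symbol only, so signal from a copy, or from human transcripts of the grafted cells, cannot be told apart from that of the gene.

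Genes that work with the ribosome were also examined. Of 13 tested elongation factors and other genes known for oligopyrimidine tracts, 0 passed the test and 2 (15.4%) had an unadjusted p under 0.05 in limma, beside 1.74% and 21.0% of all 9089 tested genes. Their median change was -0.046. Npm1, a nucleolar chaperone of ribosome assembly, gave 13.83, 14.48 and 14.38 in the MEC1 mice, against 13.57, 13.84 and 13.71 in the control mice, a change of 0.52 ± 0.17 (SE; adjusted p = 0.155). Btf3, which binds new chains as they leave the ribosome, had a change of -0.24 ± 0.09 and Eif3h, an initiation factor subunit, of 0.83 ± 0.41 (SE; adjusted p = 0.197 and 0.297). Eef1a1, the main elongation factor, had 0.06 ± 0.07. Eef2, another elongation factor, gave 7.70, 13.57 and 13.09 in the MEC1 mice, against 12.87, 12.76 and 13.12 in the control mice. Its change of -1.47 ± 1.75 (SE; adjusted p = 0.679) rests on mouse D. Mouse D was also far below the others at Eif4b, at 5.20, where the change was -1.05 ± 1.05 (SE; adjusted p = 0.611).

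Of 34 tested genes of ribosome biogenesis, 0 passed and 8 (23.5%) had an unadjusted p under 0.05 in limma, beside 1.74% and 21.0% of all tested genes. Their median change was 0.086. The smallest p belonged to Sbds, which in its protein form releases Eif6 from the finished large subunit. Sbds gave 11.44, 11.46 and 11.61 in the MEC1 mice, against 11.92, 12.15 and 11.97 in the control mice. Eif6, which keeps the subunits apart until then, gave 12.28, 12.59 and 12.16 in MEC1 mice and 11.79, 11.86 and 11.86 in control mice. The groups did not overlap in either gene, and neither did they in 29.0% of all tested genes. Both genes were named for their small p, a choice that favours groups without overlap. A link between their changes was not tested. The changes were -0.51 ± 0.13 for Sbds and 0.50 ± 0.14 for Eif6 (SE; adjusted p = 0.101 and 0.119), so neither passed. Rrp9, of the small nucleolar particle that guides early processing, had a change of 0.72 ± 0.22 (adjusted p = 0.138).

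Across the series, between 34.3% and 37.5% of probes were detected on an array. Pearson's r of normalized log2 intensities across probes, which are not independent, was 0.965 to 0.983 between MEC1 mice, 0.991 to 0.994 between control mice and 0.969 to 0.985 across the groups. Over the 10 tested monocyte and macrophage markers, the log2 of summed intensity was 15.76 to 15.81 in MEC1 mice. It was 16.05 to 16.11 in control mice, with no overlap. Lyz2, the brightest of these markers, weighs most in that sum, with means of 14.79 in MEC1 mice and 15.24 in control mice. Of these markers 8 had values below 0 and 2 above (median change -0.36), and 5 of 10 had an unadjusted p under 0.05, beside 21.0% of all tested genes. In limma Fcgr1 was called higher and Lyz2 lower in MEC1 mice (adjusted p = 0.017 and 0.0491). Of all tested genes 0.946% were called higher and 0.792% lower. Csf1r had a change of 0.25 (adjusted p = 0.508). Ptprc, Cx3cr1 and Adgre1 had changes of -1.41, -0.83 and -0.69 (adjusted p = 0.193, 0.165 and 0.169). Ptprc was detected on 2 MEC1 arrays only, with mouse D at 4.93. Ly6c1 was bright in MEC1 and control mice, at 14.20 and 14.26, and Mertk was detected on 1 MEC1 array only. The 13 tested neutrophil genes had a log2 of summed intensity of 17.58 to 17.61 in MEC1 mice and 17.39 to 17.57 in control mice. The groups were narrowly without overlap. The changes of these genes were above 0 in 8 and below in 5 (median 0.055). In limma 1 of them, Prtn3, was called higher (0.39 ± 0.08, adjusted p = 0.0483), beside 0.946% of all tested genes. An unadjusted p under 0.05 was found in 4 (30.8%, beside 21.0% of all tested genes). Besides Prtn3 these were Lcn2, S100a8 and S100a9, with changes of 0.70, 0.27 and 0.30. The 5 genes below 0 were Cxcr2, Ltf, Ngp, Camp and Elane, with changes of -0.25, -0.24, -0.23, -0.02 and -0.01. The 5 tested eosinophil genes had a log2 of summed intensity of 15.81 to 16.07 in MEC1 mice and 15.71 to 15.88 in control mice. Among them 4 had values above 0 and 1 below (median change 0.541), and 0 passed in limma (smallest adjusted p = 0.124). An unadjusted p under 0.05 was found in 3 (60.0%, beside 21.0% of all tested genes). These were Epx, Ear10 and Prg3, with changes of 0.86, 0.80 and 0.54, while Prg2, the brightest, had 0.12. Of 10 named genes of a B lineage list Cd79b was the one tested, at 8.86 in MEC1 mice and 8.87 in control mice. Vpreb1 was detected on 2 control arrays, Ebf1 on 1 control array, and the other 7, Ms4a1 and Pax5 among them, on no array. Values of the cell type genes are given under quantile normalization only, and bright probes shifted with the scaling. Lyz2 and Prtn3, both bright, passed narrowly. The part of these cell types in the values of the ribosomal proteins was not tested.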

How the data were processed

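Total RNA was labelled and hybridised to a 1-colour Illumina bead array, 1 per mouse, all 6 on 1 chip, per the labels. Per the file headers, the authors deposited for each probe its detection p-value and its mean signal, an intensity without normalization. A second deposited table holds their processed intensity values, used as an alternative, and how they were normalized is not given in the sources used here. GenomeStudio is named in the submitters' processing notes.

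Intensities were background-corrected and quantile-normalized with neqc (offset 16) in limma 3.58.1 under R 4.3.3, and log2 values are used throughout. Probes detected (p under 0.05) on 3 arrays or more were tested (16460) by lmFit and eBayes with trend and robust variance, MEC1 minus control, with Benjamini-Hochberg adjustment over all of them. SE is the moderated standard error. Steps were tested on simulated arrays. Mice of the 2 groups share no replicate letter, so no pairing was made. Control mice held the first chip positions and MEC1 mice the last. Symbols came from the platform annotation, and all 65 were current in RefSeq, whose start site sequences (GRCm38.p6) are shown. Genes named are the 8 largest rises and falls in log2 change, the stalk, paralogue, Diamond-Blackfan and reference gene lists, the 5 genes whose probes disagree most, and up to 3 genes of the translation and biogenesis lists with the smallest p. Rps12, Rpl10a, Rpl35, Rpl14, Eef1a1, Eef2 and Eif4b fall outside this and were named after their values were seen. Members and lists were chosen with earlier results of these data known. The brightness limit, the interval widths and scaling to the tested probes' median were chosen after seeing the data. The 3 mice per group limit precision.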

Additional observations from a re-analysis of the deposited data

How the results depend on the processing

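The count of member probes called was 0 in each direction under the authors' processed table, without background correction, with a detection p under 0.01, with no filter, without trend or robust variance, with array weights, with chip position as a covariate and with the mean over the probes of a gene. With chip position as a covariate the SE of Rps14 was 0.17, against 0.08 without it. Control mice held the first positions and MEC1 mice the last, so that fit was imprecise and cannot separate position from group. Scaling to the median of all probes called 1 lower, and scaling to the median of tested probes, an alternative added after seeing the data, called 6 higher. Leaving out each mouse in turn called 0 to 1 higher, the 1 being the dimmer probe of Rps19 without mouse D. The median log2 change of the member probes was -0.037; it was -0.237 and 0.322 under those median scalings and 0.003 with chip position as a covariate, and -0.062 to 0.011 leaving out each mouse in turn. The difference between Rpl3l and Rpl3 was -0.30 under both median scalings, against 0.26. That between Rpl22l1 and Rpl22 was 0.59 to 0.98 leaving out each mouse in turn, that between Rpl36al and Rpl36a -0.33 to 0.06 and that between Rpl3l and Rpl3 0.09 to 0.49. Of 526 values of named genes under the alternatives, 35 changed sign without passing in either fit and 4 passed. The 526 include settings that change only the filter or the variance model, which leave a log2 change as it is. These counts therefore do not measure how robust the values are. Moves that kept their sign are not counted, such as Rps3a1 from 0.55 to 0.02 with the median of all probes. The cause of the differences between scalings was not tested. For the pairs, settings that only change the filter or the variance model leave the values as they are, and chip position and array weights were not run. With array weights the single changes were 0.29 for Rpl22l1 and -0.32 for Rpl22, against 0.46 and -0.33 without them. Both median scalings give a pair the same value by construction. No paired analysis was possible because the groups share no replicate letter. Groups of 3 mice are too small for the outlier check, and no result was flagged.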
